A study of Mus musculus with 8 samples.

Results

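The Lef/Tcf factors, beta-catenin and a set of Wnt feedback targets were followed through cells sorted from mouse basal cell carcinoma. The 10 genes, chosen by symbol, were the transcription factors Lef1, Tcf7, Tcf7l1 and Tcf7l2, their partner Ctnnb1 (beta-catenin), and Axin2, Nkd1, Sp5, Tnfrsf19 and Cd44. A gene counted as measured where a probe set of the array was annotated to its symbol alone, and of several such probe sets the one brightest on average led. In this way 9 of the 10 genes were measured, by 24 probe sets, out of 17097 genes on the array, and all 9 were among the 14403 genes bright enough to be tested. Tcf7 was not analysed here because the annotation used pairs no probe set with it.

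All mice had the genotype K14-CreER/Ptch1cKO, in which a Cre recombinase made inducible and driven by the keratin 14 promoter of basal keratinocytes deletes Ptch1, the receptor that restrains Hedgehog signalling. Tumour cells of the back skin were taken from vismodegib-treated mice or from untreated mice, vismodegib being an inhibitor of the Hedgehog transducer Smoothened. Cells that stained for Lrig1, a marker of the upper hair follicle, were split by a green fluorescent Lgr5 reporter into Lgr5+Lrig1+ (Lgr5-positive) and Lgr5-negative Lrig1-positive cells, with 1 array for each population of each mouse. The 8 arrays thus form 4 groups of 2 mice each: vismodegib Lgr5-positive, vismodegib Lgr5-negative, untreated Lgr5-positive and untreated Lgr5-negative. All groups carry the Ptch1 deletion, and no wild-type skin was analysed here. The labels give no age, dose or length of treatment.

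When a Wnt ligand engages its receptors, beta-catenin escapes the complex that marks it for destruction, enters the nucleus and binds Lef/Tcf proteins, which sit on target genes and otherwise hold them repressed. Some of the targets act back on the pathway: Axin2 rebuilds the destruction complex and Nkd1 binds Dishevelled, so their RNA is often read as a sign of active signalling. In the mouse hair follicle Tcf7l1 is known as a repressor of the resting bulge stem cells, and Lef1 is known from the matrix and hair shaft precursors.

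Lef/Tcf proteins recognise DNA with the core CTTTGA or CTTTGT. The 250 bases before each annotated transcript start of the 10 genes were searched for both cores on both strands in the RefSeq promoters of build GRCm38.p6. At least 1 core lay in 5 of the 17 windows, belonging to 5 genes, against 27.6% of all 32851 windows of that length. Counted by gene, 5 of the 10 held a core in at least 1 window, against 30.8% of 27025 genes. The 10 genes have more windows per gene (17 windows) than all genes (32851 for 27025), so the shares by gene are not like for like. Windows of 3 genes are printed 5′ to 3′ in the direction of the gene, with the cores in capitals on either strand, because they hold the most matches (Sp5, with 4, and an internal start of Lef1, with 3) or belong to the gene with the largest increase (an internal start of Tnfrsf19, with 1).
Sp5, chr2:70474673-70474922, plus strand: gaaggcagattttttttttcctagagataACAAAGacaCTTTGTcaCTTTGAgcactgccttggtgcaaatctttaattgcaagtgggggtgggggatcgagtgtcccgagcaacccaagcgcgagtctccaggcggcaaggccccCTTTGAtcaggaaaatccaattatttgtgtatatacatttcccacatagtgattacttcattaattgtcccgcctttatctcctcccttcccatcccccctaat
Lef1, chr3:131156044-131156293, plus strand: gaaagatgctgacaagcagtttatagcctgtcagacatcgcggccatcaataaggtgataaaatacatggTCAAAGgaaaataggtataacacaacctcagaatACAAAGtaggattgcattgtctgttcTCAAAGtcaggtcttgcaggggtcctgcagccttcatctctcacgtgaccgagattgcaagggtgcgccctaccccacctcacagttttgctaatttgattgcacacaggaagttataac
Tnfrsf19, chr14:61037988-61038237, minus strand: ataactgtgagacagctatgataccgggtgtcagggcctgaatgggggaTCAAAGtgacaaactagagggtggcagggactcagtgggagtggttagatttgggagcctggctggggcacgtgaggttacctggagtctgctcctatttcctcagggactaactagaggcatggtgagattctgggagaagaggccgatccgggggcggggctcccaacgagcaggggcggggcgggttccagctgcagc
Of all windows, 31 (0.0944%) held as many matches as Sp5 or more, and 255 (0.776%) as many as the Lef1 window or more. Both windows were picked from the 17 for their counts, so these small shares are no test. A match describes letters in these windows and not a bound site, and which start a probe set reads was not tested.

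The sorting and pathway genes were read as a check of the labels. Lgr5 lay at 9.44 and 10.03 in vismodegib and 10.98 and 11.00 in untreated Lgr5-positive arrays, above 4.83 to 5.46 in vismodegib and 8.40 to 8.52 in untreated Lgr5-negative arrays. Gli1, a Hedgehog target, lay between 6.37 and 6.56 on the vismodegib arrays and between 8.75 and 10.13 on the untreated arrays. Lrig1, on which both populations were sorted, lay between 10.64 and 11.60 on all arrays, but it was higher in Lgr5-positive than in Lgr5-negative cells of untreated mice (0.79 ± 0.17, adjusted p = 0.0192). Ptch1, itself a Hedgehog target, lay between 7.72 and 8.78 on the vismodegib arrays and between 10.56 and 11.91 on the untreated arrays. Its signal does not check the deletion, since whether its probe set lies in the deleted stretch was not tested. The keratinocyte genes Krt5 and Krt14 were between 12.23 and 12.92 on all arrays, and array medians lay between 6.13 and 6.20. All levels are log2 signals, and changes are differences of log2 signals ± their standard error from limma, with n = 2 arrays a group. Because each array reads a bulk of sorted cells, fewer cells of a type and less RNA per cell cannot be told apart.

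After vismodegib the 3 measured Lef/Tcf factors stood in Lgr5-positive cells within 0.4 of their level in Lgr5-negative cells, against clearly higher levels in Lgr5-positive cells of untreated mice. By its leading probe set Tnfrsf19 ran the other way, lowest in untreated Lgr5-positive cells and at 9.06 to 9.24 in both populations after the drug. Axin2 was 1.64-fold higher with vismodegib in Lgr5-positive cells without passing the test, and the leading probe sets of Ctnnb1, Nkd1, Sp5 and Cd44 did not pass in any comparison. In Lgr5-positive cells vismodegib lowered 3 of the 9 genes (Lef1, Tcf7l1 and Tcf7l2) at an adjusted p under 0.05, where 4.51% of all tested genes were lower, and raised 1 (Tnfrsf19), where 6.37% were higher and 10.9% passed in either direction. The 2 groups did not overlap in 6 of the 9 genes, against 54.8% of all genes. In Lgr5-negative cells 1 of the 9 (Tnfrsf19) was higher, against 1.26% of all genes, and 0 were lower, against 2.06% (3.32% in either direction). The median change over the 9 genes was −0.14 and −0.04 in the 2 populations, against −0.01 and 0.01 over all genes.

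**Figure D1:**
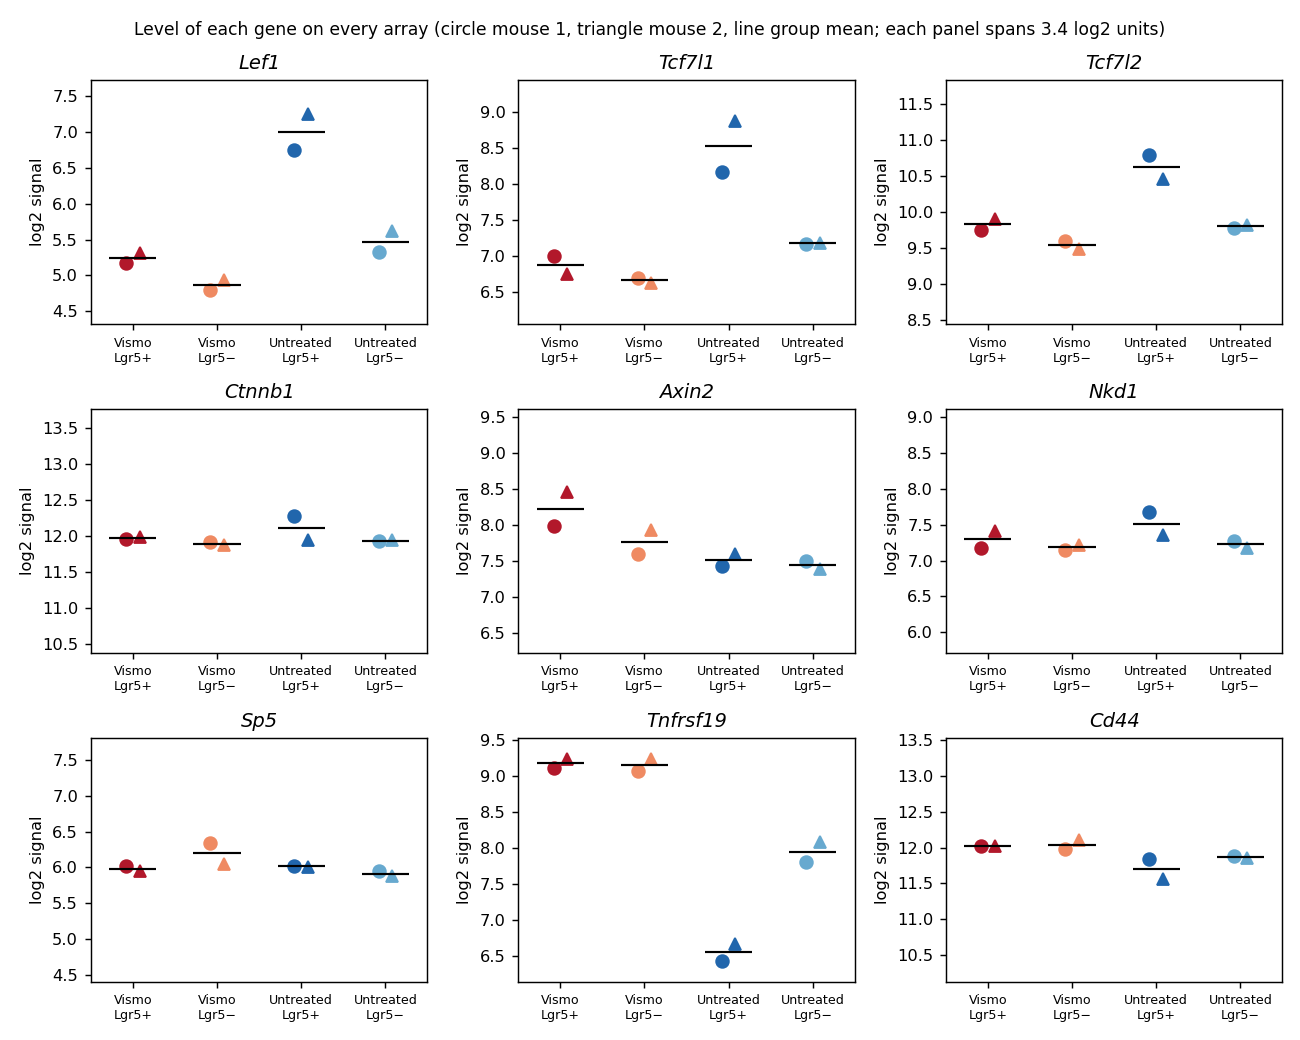
Log2 signal (vertical axes) of the leading probe set of each of the 9 measured genes on every array, by group, with mouse 1 as a circle, mouse 2 as a triangle and the group mean as a line. Each panel spans 3.4 log2 units so that changes can be compared by eye. Lef1, Tcf7l1 and Tcf7l2 are highest on both untreated Lgr5-positive arrays, while Tnfrsf19 is lowest there, at 6.43 and 6.66.

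Lef1, the factor most tied to hair shaft fate, showed the largest fall of the 3. It stood at 5.17 and 5.31 in vismodegib Lgr5-positive arrays, against 6.75 and 7.25 in untreated ones. The groups did not overlap, and Lef1 was 3.38-fold lower after the drug (log2 fold change −1.76 ± 0.19, adjusted p = 0.00146). In Lgr5-negative cells it stood at 4.80 and 4.93 after vismodegib, against 5.33 and 5.61 in untreated mice. That change of −0.60 ± 0.19 did not pass (adjusted p = 0.138), and 1 of the treated arrays lay below 4.85, the level used to mark dim genes. From high to low, Lef1 was ordered as untreated Lgr5-positive, untreated Lgr5-negative, vismodegib Lgr5-positive and vismodegib Lgr5-negative. The middle groups of this order were close, with the highest vismodegib Lgr5-positive array (5.31) next to the lowest untreated Lgr5-negative one (5.33).

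Tcf7l1, also called Tcf3, followed Lef1. Vismodegib Lgr5-positive arrays read 6.99 and 6.74, against 8.17 and 8.87 in untreated Lgr5-positive arrays, which gave a 3.15-fold lower level (−1.66 ± 0.22, adjusted p = 0.00378). In Lgr5-negative cells the values were 6.69 and 6.63 after vismodegib, against 7.17 and 7.18 in untreated mice. Both groups were tight and did not overlap, yet the change of −0.52 ± 0.22 did not pass (adjusted p = 0.263), and groups failed to overlap for 8 of the 9 genes and for 51.4% of all genes in this comparison.

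Tcf7l2, or Tcf4, a factor known for its role in the mouse intestine, was the brightest of the 3 probe sets and changed less. It read 9.75 and 9.91 in vismodegib Lgr5-positive arrays, against 10.80 and 10.46 in untreated ones, a 1.74-fold lower level (−0.80 ± 0.14, adjusted p = 0.0137). This call was lost without vismodegib Lgr5-positive array 1 (adjusted p = 0.100) or array 2 (0.051), and in a fit of only the 4 arrays compared (0.0502), with changes between −0.87 and −0.72. Lgr5-negative cells had 9.60 and 9.49 after vismodegib, against 9.79 and 9.82 in untreated mice (−0.26 ± 0.14, adjusted p = 0.383).

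Set side by side in untreated mice, Lgr5-positive cells had more of all 3 factors than the Lgr5-negative cells of the same mouse. The within-mouse difference in Lef1 was 1.43 in mouse 1 and 1.64 in mouse 2, and the level was 2.89-fold higher in Lgr5-positive cells (1.53 ± 0.19, adjusted p = 0.00267). For Tcf7l1 the difference was 1.00 and 1.69 in the 2 mice (1.35 ± 0.22, adjusted p = 0.00754). For Tcf7l2 it was 1.01 and 0.64 (0.83 ± 0.14, adjusted p = 0.00949). Of the 9 genes, 3 were higher, against 6.21% of all tested genes, and 1 (Tnfrsf19) was lower, against 10.9% (17.1% in either direction). The populations did not overlap in 8 of the 9 genes, against 64.6% of all genes. Without untreated Lgr5-negative array 2 neither Tcf7l1 (adjusted p = 0.062) nor Tcf7l2 (0.072) passed, and Tcf7l2 did not pass without array 1 of that group either (0.0597).

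After vismodegib the populations were close. Lef1 was higher in the Lgr5-positive cells by 0.37 and 0.38 in the 2 mice, Tcf7l1 by 0.30 and 0.11, and Tcf7l2 by 0.16 and 0.42. The fitted differences were 0.37 ± 0.19, 0.21 ± 0.22 and 0.29 ± 0.14, and none passed (adjusted p between 0.475 and 0.757). In this comparison 1 of the 9 genes (Axin2) had an unadjusted p under 0.05 by limma, as had 1749 of the 14403 tested genes. After adjustment 0 of the 9 passed, where 0.472% of all genes did (0.34% higher and 0.132% lower). The populations did not overlap in 6 of the 9 genes, against 43.7% of all genes. With the mouse as a block the count over all genes went to 105 in place of 68, and again 0 of the 9 passed. The 95% intervals were −0.06 to 0.81 for Lef1, −0.30 to 0.72 for Tcf7l1 and −0.05 to 0.62 for Tcf7l2.

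**Figure D2:**
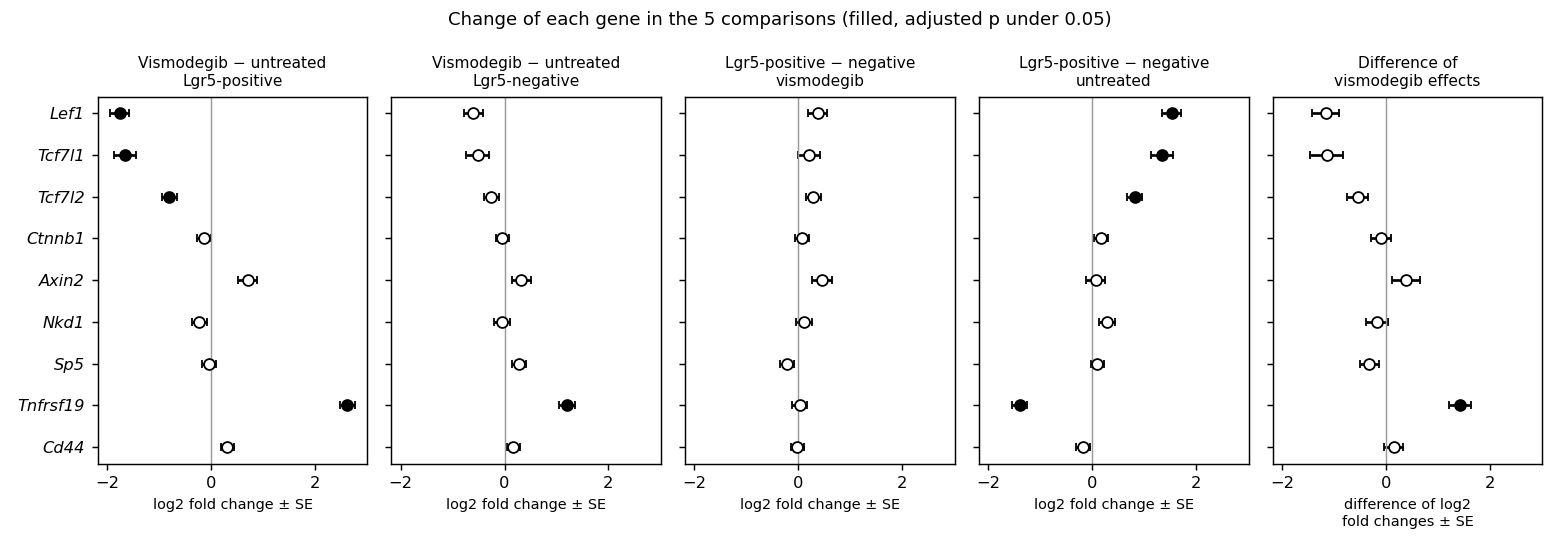
Log2 fold change (horizontal axes, with bars of 1 standard error) of the 9 genes in the 2 vismodegib comparisons, the 2 population comparisons and the difference between the vismodegib effects of the populations. Filled points passed at an adjusted p under 0.05: Lef1, Tcf7l1, Tcf7l2 and Tnfrsf19 in Lgr5-positive cells, Tnfrsf19 in Lgr5-negative cells, the same 4 as in Lgr5-positive cells between untreated populations, none after vismodegib, and Tnfrsf19 for the difference.

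Ctnnb1, the shared partner of these factors and a component of cell junctions, stayed at a high signal everywhere. It read 11.96 and 11.98 in vismodegib and 12.27 and 11.95 in untreated Lgr5-positive arrays, and 11.92 and 11.87 in vismodegib and 11.93 and 11.94 in untreated Lgr5-negative arrays. The vismodegib change was −0.14 ± 0.13 in Lgr5-positive cells (95% interval −0.45 to 0.17) and −0.04 ± 0.13 in Lgr5-negative cells (−0.35 to 0.27). In the fit of all probe sets, 1 of its 2 others gave −0.46 ± 0.12 in Lgr5-positive cells and passed (adjusted p = 0.0475), while the other gave −0.28 ± 0.13 and did not pass (adjusted p = 0.231). RNA level does not measure the protein, which is the form that Wnt signalling regulates.

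Tnfrsf19, also called Troy, is a receptor of the TNF family that marks Wnt-active stem cells of the mouse intestine and is known there to dampen Wnt signalling through contact with Lgr5. It had the largest change of the 9 genes. Vismodegib Lgr5-positive arrays read 9.11 and 9.24, against 6.43 and 6.66 in untreated ones, a 6.20-fold higher level (2.63 ± 0.15, adjusted p = 0.000189). Vismodegib Lgr5-negative arrays read 9.06 and 9.23, against 7.80 and 8.08 in untreated ones, a 2.31-fold higher level (1.21 ± 0.15, adjusted p = 0.00918). Without untreated Lgr5-negative array 1 the second call was lost (1.07, adjusted p = 0.0613). By the leading probe set the 4 treated arrays thus lay within 0.2 of each other, above all 4 untreated arrays. The other probe sets spread more on the treated arrays, from 8.92 to 9.335 and from 8.19 to 8.94.

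Between untreated populations Tnfrsf19 was lower in Lgr5-positive cells by 1.37 and 1.42 in the 2 mice (−1.40 ± 0.15, adjusted p = 0.00178). After vismodegib the same within-mouse difference was 0.04 and 0.01 (0.03 ± 0.15, adjusted p = 0.963). In the fit of all probe sets the others of the gene gave −0.29 ± 0.19 and −0.44 ± 0.23 there, without passing by limma (adjusted p = 0.605 and 0.495).

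Axin2 is the target most often used to read Wnt activity, and its vismodegib differences lay above 0 in both populations, where those of the 3 Lef/Tcf factors lay below 0. It read 7.99 and 8.46 in vismodegib Lgr5-positive arrays, against 7.43 and 7.60 in untreated ones (0.71 ± 0.19), a 1.64-fold difference that lay just outside the threshold (adjusted p = 0.0537). With the mean of its 2 probe sets the change was 0.82 and passed (adjusted p = 0.0481), as it did with a stricter filter on dim genes (0.0449). In the fit of all probe sets the other one gave 0.92 ± 0.28 and did not pass by limma (adjusted p = 0.077). Leaving out each array in turn gave changes between 0.48 and 0.94. In Lgr5-negative cells it read 7.59 and 7.93 after vismodegib, against 7.50 and 7.39 in untreated mice (0.32 ± 0.19, adjusted p = 0.414). The highest level was that of vismodegib Lgr5-positive cells, by 0.40 and 0.52 over the Lgr5-negative cells of the same mice (0.46 ± 0.19, adjusted p = 0.391), and the untreated populations overlapped.

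Nkd1, the Dishevelled-binding feedback inhibitor, read 7.17 and 7.41 in vismodegib and 7.68 and 7.35 in untreated Lgr5-positive arrays, which overlap (−0.22 ± 0.15, adjusted p = 0.424). Its 4 probe sets gave changes between −0.50 and −0.20 in these cells, and the largest of them passed (adjusted p = 0.0414) at levels of 4.78 to 5.37, near the dim limit. In Lgr5-negative cells its vismodegib change was −0.05 ± 0.15. Between untreated populations another dim probe set was higher in Lgr5-positive cells (0.64 ± 0.14, adjusted p = 0.0244), against 0.28 ± 0.15 for the leading one.

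Sp5, a zinc finger repressor whose promoter window holds the 4 cores printed earlier, varied by less than 0.5 over all arrays. Its values were 6.02 and 5.95 in vismodegib and 6.02 and 6.01 in untreated Lgr5-positive arrays, and 6.34 and 6.05 in vismodegib and 5.95 and 5.88 in untreated Lgr5-negative arrays. The change in Lgr5-positive cells was −0.03 ± 0.13 (95% interval −0.34 to 0.27) and in Lgr5-negative cells 0.28 ± 0.13 (−0.02 to 0.58).

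Cd44, a hyaluronan receptor that is a Wnt target in the mouse intestine, had one of the brightest probe sets of the 9 genes. It read 12.02 on both vismodegib Lgr5-positive arrays, against 11.84 and 11.56 on the untreated ones (0.32 ± 0.13, adjusted p = 0.172). In Lgr5-negative cells it read 11.98 and 12.10 after vismodegib, against 11.88 and 11.86 in untreated mice (0.17 ± 0.13, adjusted p = 0.535). All 4 of its probe sets lay above 0 for vismodegib in Lgr5-positive cells, between 0.32 and 0.87, and 0 of them passed.

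The vismodegib effect was also tested for a difference between the populations. Tnfrsf19 gained 1.42 ± 0.21 more in Lgr5-positive cells (adjusted p = 0.0298). It was the 1 of the 9 genes to pass, where 1.4% of all genes passed, 0.993% higher and 0.41% lower. Leaving out any single array except untreated Lgr5-positive array 2 ended that call (adjusted p between 0.0503 and 0.141), and in the fit of all probe sets its 2 others gave 1.26 ± 0.27 and 0.20 ± 0.32 without passing (adjusted p = 0.0778 and 0.79). For Lef1 the difference was −1.16 ± 0.26 and did not pass (adjusted p = 0.0837), but it did with the mouse as a block (0.0376) and without untreated Lgr5-positive array 1 (−1.41, 0.0409). For Tcf7l1 it was −1.14 ± 0.31 and did not pass (adjusted p = 0.123), but it did without that array (−1.49, 0.0308), and the other probe set of the gene passed at −1.45 ± 0.20 (adjusted p = 0.0244). For Tcf7l2 the difference was −0.54 ± 0.20 and did not pass (adjusted p = 0.232).

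**Figure D3:**
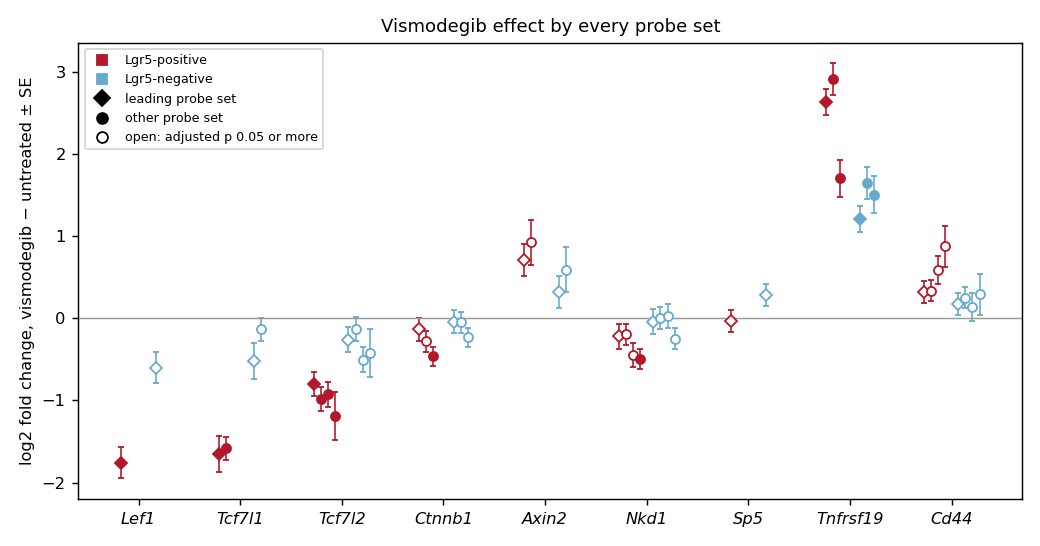
Log2 fold change for vismodegib against untreated (vertical axis, with bars of 1 standard error) by each of the 24 probe sets, in Lgr5-positive cells to the left and Lgr5-negative cells to the right of each gene. Filled symbols passed at an adjusted p under 0.05 and diamonds are the leading probe sets. All 7 probe sets of Lef1, Tcf7l1 and Tcf7l2 passed lower and all 3 of Tnfrsf19 passed higher in Lgr5-positive cells.

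In Lgr5-positive cells the 7 probe sets of the 3 Lef/Tcf factors fell by 0.80 to 1.76 after vismodegib, and each passed when every probe set was tested. In Lgr5-negative cells the same 7 gave −0.60 to −0.13 and 0 passed by limma. The 3 Tnfrsf19 probe sets rose by 1.71 to 2.91 in Lgr5-positive and by 1.21 to 1.65 in Lgr5-negative cells, all past the threshold. Between untreated populations 1 of the 4 Tcf7l2 probe sets (0.80 ± 0.29, adjusted p = 0.106), whose design lets it bind related transcripts too, and 1 of the 3 Tnfrsf19 probe sets (−0.64 ± 0.23, adjusted p = 0.0981) did not pass.

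Other parts of the pathway were followed in 4 lists. Of all tested genes, 6.37% passed higher and 4.51% lower for vismodegib in Lgr5-positive cells, and 1.26% and 2.06% in Lgr5-negative cells. Between populations the shares were 6.21% and 10.9% in untreated mice and 0.34% and 0.132% after vismodegib. For the difference of effects they were 0.993% and 0.41%. The counts of these lists and of the marker lists further down stand beside those shares. The destruction complex and Dishevelled genes, which include Apc, Gsk3b and the Dishevelled genes Dvl1, Dvl2 and Dvl3, had 0 of 14 higher and 0 lower by limma in each of the 5 comparisons, with a median of −0.07 for vismodegib in Lgr5-positive cells and 0.13 between untreated populations, where all genes had −0.01 and 0.02. Among nuclear cofactors of beta-catenin and the Tcf proteins, 0 of 21 were higher and 2 lower after vismodegib in Lgr5-positive cells (median 0.03). These were the beta-catenin adaptor Bcl9 (−0.74 ± 0.15, adjusted p = 0.0234) and Sox9 (−0.73 ± 0.13, adjusted p = 0.0141), a stem cell factor of the hair follicle. In Lgr5-negative cells 0 passed by limma. Between untreated populations 3 were higher in Lgr5-positive cells, Sox9 (0.80 ± 0.13), the co-repressor Tle2 (0.77 ± 0.21) and the acetyltransferase Crebbp (0.46 ± 0.13), and 1 was lower, Tle5 (−0.80 ± 0.18), a short Tle protein (median −0.11).

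Wnt target genes outside the 10 did not follow one direction. Of 33 tested, 3 were higher and 5 lower after vismodegib in Lgr5-positive cells, with a median of −0.08. Those that rose were the Wnt inhibitor Apcdd1 (2.14 ± 0.31), the angiogenic factor Vegfa (1.83 ± 0.19) and Ndrg1 (0.80 ± 0.13), and the largest decreases were in the secreted inhibitor Wif1 (−2.26 ± 0.20), the transcription factor Sox4 (−1.62 ± 0.12) and Lgr5 (−1.25 ± 0.25). Apcdd1, like Tnfrsf19, was lowest in untreated Lgr5-positive arrays, at 7.86 and 8.93, against 10.39 and 10.69 in the vismodegib Lgr5-positive arrays. In Lgr5-negative cells 0 were higher and 3 lower (median 0.02), namely Wif1 (−3.53 ± 0.20), Lgr5 (−3.31 ± 0.25) and Sox4 (−0.99 ± 0.12). After vismodegib 2 were higher in Lgr5-positive cells (median 0.01), Wif1 (2.28 ± 0.20) and Lgr5, and between untreated populations 8 were higher and 3 lower (median 0.14), with Lgr5, on which the cells were sorted, Lgr6 (1.49 ± 0.19) and Id2 (1.11 ± 0.29) the highest and Sp6 (−1.47 ± 0.40) the lowest.

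Hair lineage genes, whose control by Lef1 was not tested, had 0 of 17 higher and 1 lower after vismodegib in Lgr5-positive cells (median −0.13). This was the hair homeobox gene Hoxc13, at 6.94 and 6.82 in vismodegib Lgr5-positive arrays, against 8.12 and 8.42 in untreated ones (−1.39 ± 0.13, adjusted p = 0.00104). Between untreated populations Hoxc13 (1.51 ± 0.13), Trps1 (0.74 ± 0.20) and the keratin Krt71 (0.53 ± 0.14) were higher in Lgr5-positive cells, and the keratin Krt73 was lower (−0.42 ± 0.11), with a median of 0.20. In Lgr5-negative cells 0 of the 17 passed by limma (median 0.05). For the difference between the vismodegib effects, 1 gene of the 4 lists passed, Lgr5 (2.06 ± 0.35), on which the cells were sorted.

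**Figure D4:**
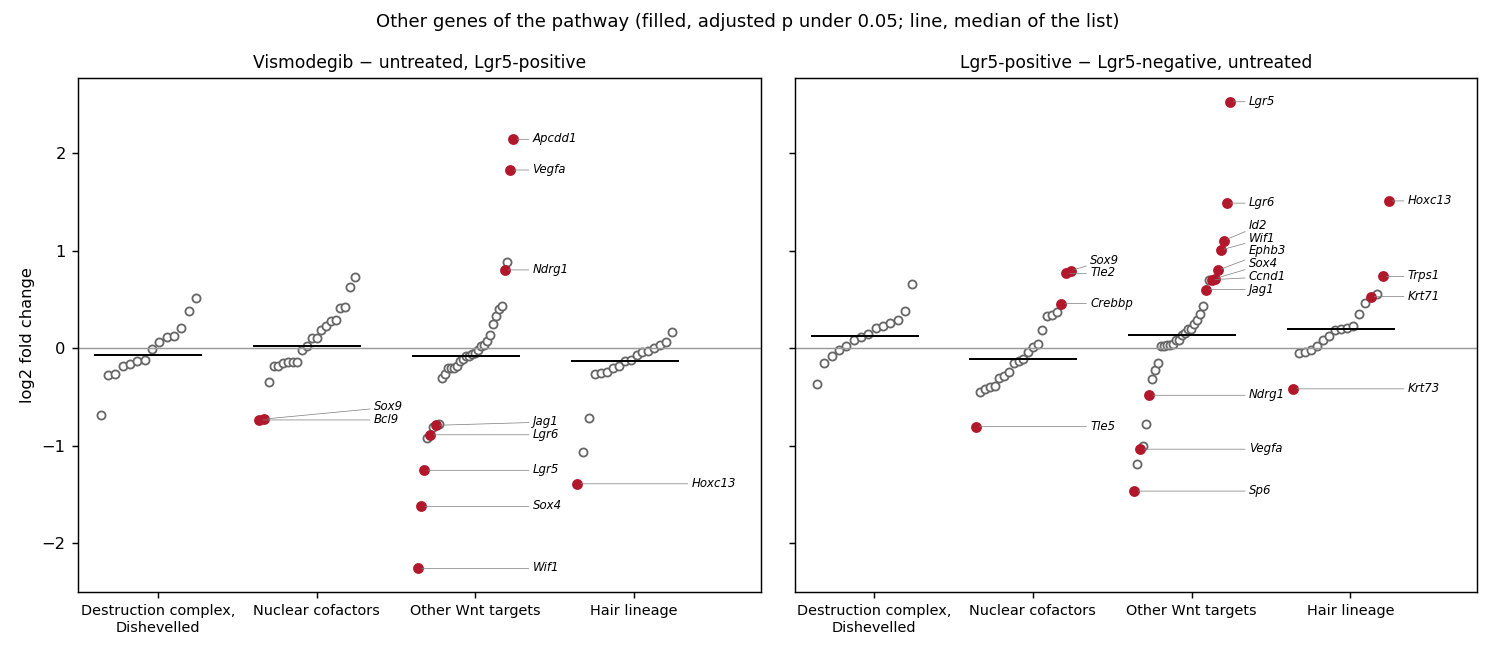
Log2 fold change (vertical axis) of every tested gene of the 4 lists, for vismodegib against untreated in Lgr5-positive cells (left) and for Lgr5-positive against Lgr5-negative cells in untreated mice (right). Filled, named points passed at an adjusted p under 0.05, and the line is the median of the list, for example −0.08 for Wnt targets on the left and 0.14 on the right.

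Across the 8 arrays, Lef1 had a correlation of 0.981 with Tcf7l1, 0.920 with Tcf7l2 and −0.913 with Tnfrsf19, while Axin2 had −0.378 with Lef1 and 0.659 with Tnfrsf19. These describe 8 arrays that share 4 mice and fall in 4 groups, so they mostly restate the group levels. Of all other tested genes the 4 most like Lef1 were the Hedgehog-responsive proto-oncogene Mycn (0.991), the neurotrophin Bdnf (0.991), Lamb1 (0.990), whose probe set may also bind related transcripts, and Ppp1r36 (0.990). Those most like Tcf7l1 were Golm2, Ddhd1, Fgd5 and the receptor Ret (0.988 to 0.991). Those most like Tcf7l2 were the homeobox gene Lmx1b (0.996), Pik3cg, Mxra7 and the ephrin receptor Ephb1. The pattern of Tnfrsf19 was nearest to those of Wfs1, Tmem62, the junction protein alpha-catenin (Ctnna1) and Crybg2 (0.985 to 0.988), and that of Axin2 to Plaat3, Emc8, Rasgrf1 and Ly6i (0.955 to 0.982).

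Leukocytes can express Lef1, Tcf7 and Cd44, so marker lists were read beside these changes. The mean level of 12 T cell markers lay between 6.12 and 6.17 in vismodegib and between 5.99 and 6.03 in untreated Lgr5-positive arrays, with 0 of 11 tested higher and 0 lower by limma for vismodegib there. Of the 11 tested, 8 had changes above 0, with a median of 0.09. Among them Cd3e was at 5.62 and 5.39 in vismodegib, against 5.10 and 4.81 in untreated Lgr5-positive arrays. Cd8a, named after seeing the data, ran the other way, at 5.98 and 6.03 against 6.19 and 6.47. The mean of the 12 includes Bcl11b, at 9.61 to 10.42 over all arrays, where no other marker of the list exceeded 7.29. In untreated mice 0 T cell markers passed as higher in Lgr5-positive than in Lgr5-negative cells and 2 as lower, Cd3e (−0.93 ± 0.21) and Cd5 (−0.80 ± 0.14). Of the 11 tested, 4 had differences above 0 there. For vismodegib, 13 of 14 tested markers of macrophages, dendritic and Langerhans cells had changes above 0 in each population, as did Tnfrsf19. Their mean level over 15 genes lay between 8.01 and 8.43 in vismodegib and between 5.43 and 5.73 in untreated Lgr5-positive arrays, with 12 of 14 higher. It lay between 7.63 and 7.71 in vismodegib and between 6.62 and 6.93 in untreated Lgr5-negative arrays, with 3 of 14 higher. Of these 15, 0 to 1 lay below the dim limit on vismodegib Lgr5-positive arrays, against 4 to 5 on untreated ones. In untreated Lgr5-positive arrays Lyz2 was at 4.85 and 3.63 and Ptprc at 4.70 and 4.33, while Cd68 was at 7.22 and 7.70. The Langerhans cell marker Cd207 did not rise in Lgr5-positive cells, at 5.70 and 6.05 after vismodegib, against 6.09 and 5.80 in untreated mice. The part of leukocytes in the changes of Lef1, Tnfrsf19, Axin2 and Cd44 was not tested.

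Means of 12 dermal papilla and fibroblast markers lay between 5.11 and 5.14 in vismodegib and between 5.57 and 5.63 in untreated Lgr5-positive arrays, a difference of −0.48. Without Hhip, left out after seeing the data because it is also a Hedgehog target of tumour cells, the other 11 lay between 5.08 and 5.11 in vismodegib and between 5.25 and 5.28 in untreated Lgr5-positive arrays, a difference of −0.17. Of the 7 tested, 2 were lower after vismodegib there, the proteoglycan gene Vcan (−0.55 ± 0.13) and Hhip (−3.94 ± 0.36), and 0 were higher. Only 1 of the 7 had a change above 0, and their median was −0.38. Between untreated populations 3 of the 7, Hhip included in the list, were higher in Lgr5-positive cells and 0 lower. All 7 differences lay above 0 there, with a median of 0.47, against 0.02 over all genes. The defining markers Pdgfra, Lum and Corin did not reach the dim limit on 2 arrays and were not tested. Col1a1 and Dcn, named after seeing the data, were brighter. They averaged 6.57 and 6.49 in vismodegib and 7.08 and 6.87 in untreated Lgr5-positive arrays, and neither change passed. The part of such cells in the changes of Lef1 was not tested. For vismodegib in Lgr5-positive cells melanocyte markers had 1 of 7 higher (Mitf, 2.14 ± 0.23) and 0 lower by limma. Only 2 of these 7 had changes above 0, and their median was −0.135. Endothelial markers in Lgr5-positive cells had 0 of 6 higher and 0 lower by limma. Keratinocyte markers had 1 of 6 higher there, the junction gene Cdh1 (0.57 ± 0.11).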

How the data were processed

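The deposited log2 signals of Affymetrix perfect-match mouse arrays were made by the authors with RMA, per the submitters' processing notes (version not given in the sources used here), and were used as deposited. The labels write Lrg5- for the negative gate, read here as Lgr5-negative. Of 45141 probe sets, 104 were controls, 28898 had 1 gene symbol, 551 several and 15588 none. A gene was tested where at least 2 arrays exceeded 4.85 (percentile 25 over the whole matrix), which left 14403 of 17097. The test was limma 3.58.1 in R 4.3.3 with a mean for each of the 4 groups (residual df 4, prior df 3.53) and Benjamini-Hochberg adjustment over all tested genes. Alternatives were no filter or one at the median, the mean of probe sets, each other probe set, cyclic loess, an intensity trend in the prior variance, array weights, a replicate block (the mouse, or for vismodegib comparisons the mouse number), only the arrays compared, and leaving out each array. Samples with the same mouse share an animal; deviations from group means of a mouse's 2 arrays had correlations of 0.211 (vismodegib) and 0.142 (untreated). Numbers shared between treated and untreated mice do not pair them. P-values rest on a spread pooled over the 4 groups of 2 mice and moderated with that of all genes, and the number of arrays limits precision. Except with the mouse as a block, the fits treat the 2 arrays of a mouse as independent. The fit was tested on simulated data with independent noise on each array and 50 genes changed at each size. In the 4 comparisons of 2 groups it recovered 20% to 30% of 1.5-fold and 82% to 92% of 2-fold changes. For the difference of effects it recovered 2% and 46%, so a gene that did not pass may still differ. Beside the 10 genes, up to 3 passing genes of each list and direction per comparison were eligible to be named, with the 4 tested genes best correlated with each Lef/Tcf factor, Tnfrsf19 and Axin2, up to 3 defining markers of each other cell type, and Lgr5, Lrig1, Gli1 and Ptch1 as checks of the labels. The genes, lists and tests were chosen with earlier results of these data known.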

Additional observations from a re-analysis of the deposited data

Results flagged for a closer look

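The vismodegib effect on Tnfrsf19 differed between the populations by the test of that difference, with a gain larger by 1.42 ± 0.21 on the log2 scale in Lgr5-positive than in Lgr5-negative cells (limma, adjusted p = 0.0298). The call was lost in 7 of the 8 fits that left out 1 array (adjusted p up to 0.141), all but the one without untreated Lgr5-positive array 2. The 2 other probe sets of the gene did not pass, at 1.26 (adjusted p = 0.0778) and 0.20 (adjusted p = 0.79). Lgr5-positive arrays averaged 9.17 ± 0.10 after vismodegib, against 6.54 ± 0.16 in untreated mice, and Lgr5-negative arrays 9.15 ± 0.12 after vismodegib, against 7.94 ± 0.20 in untreated mice (SD, n = 2 each). The groups of 2 are too small to look for a sample that stands apart.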

How the results depend on the processing

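No difference of the 9 genes that passed turned its sign under any alternative run. Leaving out each array in turn gave 543 (without vismodegib Lgr5-positive array 1) to 1823 genes past the threshold for vismodegib in Lgr5-positive cells, and 65 (without untreated Lgr5-negative array 2) to 523 in Lgr5-negative cells. It gave 18 (without vismodegib Lgr5-negative array 1) to 107 between populations after vismodegib, 582 (without untreated Lgr5-negative array 2) to 2852 between untreated populations, and 2 (without vismodegib Lgr5-positive array 1) to 251 for the difference of effects. Of the 9 genes, 3 to 5 passed for vismodegib in Lgr5-positive cells, 0 to 1 in Lgr5-negative cells, 0 between populations after vismodegib, 2 to 4 between untreated populations and 0 to 2 for the difference. A fit of only the arrays compared gave 234 genes in place of 478 for vismodegib in Lgr5-negative cells and 11 in place of 68 between populations after vismodegib, where no filter gave 36 and the mouse as a block 105. For the difference of effects 2 of the 9 genes passed with the mouse as a block (Lef1 beside Tnfrsf19), and 2 with the mean of probe sets (Tcf7l1 beside Tnfrsf19, −1.29, adjusted p = 0.0396). For vismodegib in Lgr5-positive cells Axin2 passed with the mouse number as a block, which pairs different animals (adjusted p = 0.0422), and without either vismodegib Lgr5-negative array (0.045). The replicate block changed no other call of the 9 genes. A lone array left in a group is assumed to vary like the others. The cause of these shifts was not tested.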
